A study of Mus musculus with 8 samples.

Results

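Ephrins and their Eph receptors, and semaphorins and their plexin receptors, are the ligand and receptor families first described in the guidance of axons. They were followed here in endothelial cells sorted from mouse colon, as 50 genes of 22180 measured. Members were the genes with a probe set of exactly 1 symbol, where that symbol has the form of an Eph receptor, an ephrin, a semaphorin or a plexin; 1 further gene of these families was not analysed here. They comprised 13 Eph receptors (9 EphA and 4 EphB), 8 ephrins (5 ephrin-A and 3 ephrin-B), 20 semaphorins and 9 plexins.

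Eph receptors are receptor tyrosine kinases, and ephrins are ligands held on the membrane of a neighbouring cell, so that signals can run into both cells and often drive them apart. Semaphorins of class 3 are secreted and mostly act through neuropilin coreceptors, while those of classes 4 to 7 are bound to the membrane and mostly bind plexins directly. Plexins switch off small GTPases of the Ras and Rap type and so loosen the adhesion of the cell. In vessels, ephrin-B2 marks arteries and EphB4 veins, and in the intestine EphB receptors and ephrin-B ligands hold crypt cells in their places.

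All recipients were female C57BL/6 mice that had 5 days of busulfan and cyclophosphamide and then 15000000 bone marrow cells and 2000000 T cells. Donors were C57BL/6 mice in the syngeneic group (n = 4 arrays) and LP/J mice in the allogeneic group (n = 4 arrays), whose grafts can cause graft-versus-host disease, and the colon was taken at day 2. Cells without CD45 and CD11b that carried CD31 were sorted from collagenase-digested colon, and RNA was hybridised to Affymetrix Mouse Gene 2.0 arrays. The labels give neither the age of the mice nor whether a sample pooled mice.

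Levels are log2 signals as deposited, and a change is the allogeneic minus the syngeneic mean, so that -1 is a halving. The defining genes of the sorted cells were high, with Pecam1 (CD31) at 9.76 to 11.58 and Cdh5 (VE-cadherin) at 9.20 to 11.37 over the 8 arrays. Those of the excluded leukocytes were lower, with Ptprc (CD45) at 4.42 to 6.18 and Itgam (CD11b) at 4.99 to 5.92. Both lay near the median gene mean (5.33), so an absence of leukocyte RNA was not shown. Epithelial genes gave a strong signal on every array, with Epcam at 8.93 to 9.51, Krt8 at 11.64 to 12.01, Muc2 at 12.30 to 13.07 and Car1 at 12.44 to 13.26, so a member's signal cannot be assigned to 1 cell type. The mean of 25 pan-endothelial genes was 7.44 to 8.09 on allogeneic arrays and 7.69 to 9.57 on syngeneic ones, where arrays 3 and 4 (8.68 and 9.57) stood above all others. The mean of 20 colon epithelial genes was 10.41 to 10.64 on allogeneic arrays, and 10.36, 10.45, 10.17 and 9.72 on syngeneic arrays 1 to 4. In such bulk samples, fewer cells of a type and less RNA per cell cannot be told apart.

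No guidance gene passed limma's threshold (adjusted p below 0.05 over all genes): 0 of 50, against 0.469% of all genes, or 0.356% higher and 0.113% lower. An unadjusted p below 0.05 was reached by 11 of 50 (22%), against 13.2% of all genes. Of these, 7 were lower in the allogeneic group (14% of members, background 5.43%), namely Sema6d, Sema6b, Sema3f, Sema3g, Epha2, Ephb6 and Plxna2. The other 4 were higher (8%, close to the background of 7.81%), namely Sema5a, Sema4g, Plxnb1 and Efna4. Brighter genes pass this limit more often: of the 29 members above the median gene mean (5.33), 10 had an unadjusted p below 0.05 (34.5%), against 20.5% of equally bright genes. Lower members made up 20.7% of these 29, where 7.24% of such genes were lower, and higher members 13.8%, where 13.2% were higher.

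The family as a whole did not lean to a side. Of the 50 genes 27 had a positive and 23 a negative change, with a median of 0.03, beside -0.01 over all genes. Past 0.5 in either direction were 13 members (26.0%), against 8.30% of all genes, and the median size of the members' changes was 0.19 against 0.14. This comparison was not matched for brightness. The 17 members with a mean of at most 5 had changes from -0.48 to 0.25, so none of them was past 0.5. Arrays of the groups did not overlap in 6 members (12.0%, background 8.55%), with Sema6d, Sema6b, Epha2 and Efnb1 lower (background 3.36%) and Sema5a and Plxnb1 higher (background 5.18%).

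**Figure D1:**
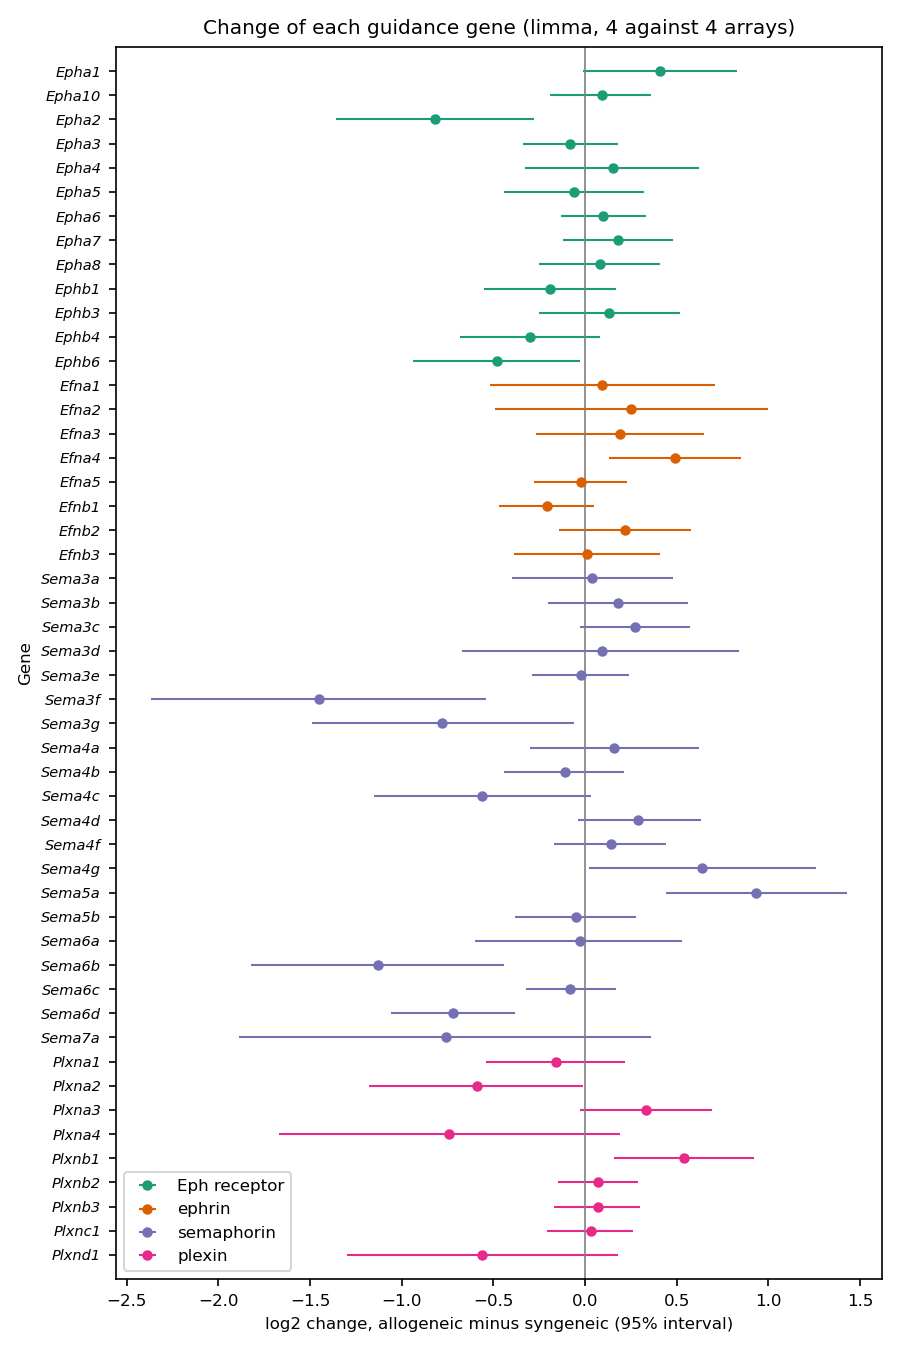
Log2 change of each of the 50 guidance genes, allogeneic minus syngeneic, with its 95% interval from limma (4 arrays per group), coloured by family. Sema3f (-1.45) and Sema6b (-1.13) lie farthest to the left and Sema5a (0.93) farthest to the right, and most Eph and ephrin genes lie near 0.

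The promoters of the 5 members with both an unadjusted p below 0.05 and groups that did not overlap are shown here. They are the sequences before start sites of genes whose arrays separated by donor on the probe set used, though none passed the threshold. For Plxnb1 a second probe set had a change of -0.43, in the other direction. The promoter printed for Plxnb1 lies inside the gene's RefSeq span (109093849 to 109119915). That printed for Sema6d ends just inside its gene's span, which begins at 124089943. Each line gives the 250 bases before a RefSeq start site (GRCm38.p6), 5′ to 3′ on the gene's strand, and for Sema6b and Sema6d, which have 2 start sites in the table, the one farther upstream. Capitals mark the GC box letters GGGCGG and the ETS core letters CCGGAAG, on either strand, and adjoining copies merge into 1 run.
Sema6d, chr2:124089719-124089968, plus strand: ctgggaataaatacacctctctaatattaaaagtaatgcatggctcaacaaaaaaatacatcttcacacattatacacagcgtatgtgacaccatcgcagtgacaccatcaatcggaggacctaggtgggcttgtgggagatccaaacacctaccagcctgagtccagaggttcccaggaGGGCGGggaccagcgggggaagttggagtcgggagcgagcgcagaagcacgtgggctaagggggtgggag
Sema6b, chr17:56140344-56140593, minus strand: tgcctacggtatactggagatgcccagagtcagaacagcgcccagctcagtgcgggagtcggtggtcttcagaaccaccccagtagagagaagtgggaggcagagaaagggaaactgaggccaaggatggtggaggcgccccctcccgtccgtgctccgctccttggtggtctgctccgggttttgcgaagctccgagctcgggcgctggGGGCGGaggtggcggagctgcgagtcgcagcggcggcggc
Epha2, chr4:141300971-141301220, plus strand: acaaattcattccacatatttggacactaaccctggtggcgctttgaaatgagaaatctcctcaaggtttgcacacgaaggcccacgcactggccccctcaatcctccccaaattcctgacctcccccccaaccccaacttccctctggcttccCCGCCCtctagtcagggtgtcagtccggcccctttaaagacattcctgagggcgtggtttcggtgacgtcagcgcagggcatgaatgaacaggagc
Sema5a, chr15:32244563-32244812, plus strand: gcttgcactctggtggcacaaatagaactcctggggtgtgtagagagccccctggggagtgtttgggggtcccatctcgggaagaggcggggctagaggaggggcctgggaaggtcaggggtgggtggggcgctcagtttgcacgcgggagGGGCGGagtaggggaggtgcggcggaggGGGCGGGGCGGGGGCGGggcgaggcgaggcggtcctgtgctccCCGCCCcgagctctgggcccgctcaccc
Plxnb1, chr9:109095186-109095435, plus strand: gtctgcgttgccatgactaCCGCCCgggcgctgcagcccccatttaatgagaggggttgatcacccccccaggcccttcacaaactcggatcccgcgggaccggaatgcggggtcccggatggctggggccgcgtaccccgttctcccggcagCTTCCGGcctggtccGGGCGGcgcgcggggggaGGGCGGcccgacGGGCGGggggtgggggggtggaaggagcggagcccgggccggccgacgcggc

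GC box letters were in all 5 printed windows, with 1 copy each for Sema6d, Sema6b and Epha2, 5 partly overlapping copies for Sema5a and 4 for Plxnb1. The windows of the start sites not printed held 0 copies for Sema6d and 1 for Sema6b. Over the 58 windows of the 44 members with an entry, 75.9% held them, against 42.6% of windows of protein-coding genes and 32.7% of all 32851 windows. The ETS letters stood in the window of Plxnb1, and in 3.45% of the members' windows against 8.98% for protein-coding genes and 6.91% for all. TATA box letters (TATAAA, either strand) stood in none of the 5, in 1.72% of the members' windows, in 11.6% for protein-coding genes and in 12.4% of all. The members' windows held a median of 15 CG pairs, against 10 for protein-coding genes and 6 for all. The arrays do not tell from which start site a transcript came, and a match of letters is a description only.

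Among the ligands, the class 6 semaphorins, membrane-bound ligands of plexin-A receptors, had negative changes in 4 of 4 genes (median -0.40). Sema6d, which binds plexin-A1 and acts in heart development and on immune cells, had the smallest p of all 50 members. Its probe set (17375557) read 7.76, 7.33, 7.58 and 7.71 on allogeneic arrays, and 8.25, 8.04, 8.53 and 8.44 on syngeneic arrays. The highest allogeneic array thus lay below the lowest syngeneic array, and neither group held a stray value. The means were 7.59 ± 0.19 and 8.31 ± 0.22 (SD, n = 4 each), a change of -0.72 ± 0.15 (SE, limma adjusted p = 0.0726), 1.65-fold higher in the syngeneic group. Without syngeneic array 2 it passed (limma adjusted p = 0.0499), and it also passed among genes above the median mean (limma adjusted p = 0.0417). The other single arrays left out gave adjusted p-values from 0.103 to 0.202 in limma, and without syngeneic arrays 3 and 4 the change was -0.55 (limma adjusted p = 0.255).

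Sema6b, a related ligand, had the largest change of the class. Syngeneic arrays 3 and 4 read 8.63 and 9.22, well above syngeneic arrays 1 and 2 (7.66 and 7.75), which in turn lay just above the allogeneic arrays (6.94, 7.09, 7.22 and 7.48). The change was -1.13 ± 0.31 (SE, limma adjusted p = 0.143), and without syngeneic arrays 3 and 4 it was -0.52 (limma adjusted p = 0.318). Sema6a (-0.03) and Sema6c (-0.08) hardly differed, with 95% intervals from -0.60 to 0.53 and from -0.32 to 0.17. The change of Sema6a turned to 0.02 without syngeneic arrays 3 and 4. It was 0.24 with the pan-endothelial mean and 0.31 with the epithelial mean as a covariate.

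The secreted class 3 semaphorins split within the class. Sema3f, a repellent of endothelial and tumour vessel growth that binds neuropilin-2, had the largest change of any member. Syngeneic arrays read 8.05, 7.68, 8.50 and 9.68 and allogeneic arrays 7.07, 6.22, 7.71 and 7.11. Allogeneic array 3 overlapped with syngeneic array 2, and syngeneic array 4 was the highest. The change was -1.45 ± 0.41 (SE, limma adjusted p = 0.156), or 2.74-fold higher in the syngeneic group, and -0.84 without syngeneic arrays 3 and 4 (limma adjusted p = 0.414).

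Sema3g, a class 3 semaphorin of arterial endothelium, was at 7.15 and 7.40 on syngeneic arrays 3 and 4. On syngeneic arrays 1 and 2 it was at 6.11 and 5.89, within the allogeneic range of 5.55 to 6.26. Its change of -0.78 ± 0.32 (SE, limma adjusted p = 0.333) was therefore -0.14 without those arrays. Sema3b, which lies near Sema3f on chromosome 9 with 3 protein-coding genes between them in the RefSeq order, had a change of 0.18 ± 0.17. The remaining class 3 genes had changes of 0.27 (Sema3c), 0.09 (Sema3d), 0.04 (Sema3a) and -0.02 (Sema3e). Sema3e, the ligand of plexin-D1 in vessel patterning, read 2.76 to 3.18, not above the brightest of 3 Y-linked genes (3.18) in these female mice, so its signal was not told apart from background. The other 49 members were above that value on all 8 arrays.

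Class 5 held the largest positive change. Sema5a, a transmembrane semaphorin with thrombospondin repeats that can promote vessel growth and binds plexin-B3, read 9.07, 9.03, 8.90 and 8.97 on allogeneic arrays. Syngeneic arrays read 7.98, 8.44, 8.47 and 7.34. Every allogeneic array was above every syngeneic one, and the allogeneic spread was the narrower (SD 0.08 against 0.53). The change was 0.93 ± 0.22 (SE, limma adjusted p = 0.104), a 1.91-fold difference, and it was 0.78 without syngeneic arrays 3 and 4 (limma adjusted p = 0.0925). Its class mate Sema5b was at -0.05 ± 0.15.

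Of the 6 class 4 semaphorins 4 had positive and 2 negative changes. Sema4g, a membrane-bound class 4 ligand, read 10.36, 10.46, 9.80 and 10.60 on allogeneic and 9.99, 9.96, 9.96 and 8.74 on syngeneic arrays. Syngeneic array 4 stood alone at the low end, and allogeneic array 3 lay below the other syngeneic arrays. The change of 0.64 ± 0.28 (SE, limma adjusted p = 0.358) was 0.33 without syngeneic arrays 3 and 4. Sema4c had a change of -0.56 ± 0.27, which was -0.09 without them. Sema4d, a ligand of plexin-B1 that acts on immune cells and vessels, was at 0.29 ± 0.15 (SE, limma adjusted p = 0.440), and Sema4a, Sema4b and Sema4f were at 0.16, -0.11 and 0.14.

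Sema7a, a semaphorin anchored by a lipid that signals through plexin-C1 and beta-1 integrins, had the largest standard error of the 50. Syngeneic arrays read 8.80, 7.88, 9.71 and 10.61, and allogeneic arrays 8.16, 7.80, 8.78 and 9.21. Both groups held high and low arrays, and the change was -0.76 ± 0.51 (SE, limma adjusted p = 0.572). That change lay within the spread of the arrays, and it turned to 0.15 without syngeneic arrays 3 and 4. With the replicate number as a block it was -0.76 ± 0.20 (SE, limma adjusted p = 0.145).

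Ephrins differed little. None of the 8 was past 0.5, and 6 had positive changes (median 0.14). Efna4, a ligand of EphA receptors, had the smallest p, with 6.77, 6.68, 6.25 and 6.46 on allogeneic and 5.95, 6.33, 6.07 and 5.86 on syngeneic arrays. Only syngeneic array 2 reached above the lowest allogeneic array, and the change was 0.49 ± 0.16 (SE, limma adjusted p = 0.227). Efna1 and Efna3, which follow each other beside Efna4 on chromosome 3 with 0 protein-coding genes between them, were at 0.09 ± 0.28 and 0.19 ± 0.21. Efna1, an endothelial ligand of EphA2, was at 0.54 without syngeneic arrays 3 and 4 (limma adjusted p = 0.435). Efna2 (0.25) and Efna5 (-0.02) completed the class.

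The arterial ligand gene Efnb2 read 7.91, 8.31, 8.19 and 8.22 on allogeneic arrays. On syngeneic arrays it read 7.76, 7.79 and 7.84, with array 4 alone at 8.36. Its change was 0.22 ± 0.16 (SE, limma adjusted p = 0.620, 95% interval -0.14 to 0.58), and 0.38 without syngeneic arrays 3 and 4 (limma adjusted p = 0.390). Efnb1, a ligand of EphB receptors in the crypt, had groups that did not overlap, at 8.52 to 8.67 and 8.70 to 9.03, but a small change of -0.21 ± 0.12 (SE, limma adjusted p = 0.480). Efnb3 was at 0.01 ± 0.18.

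**Figure D2:**
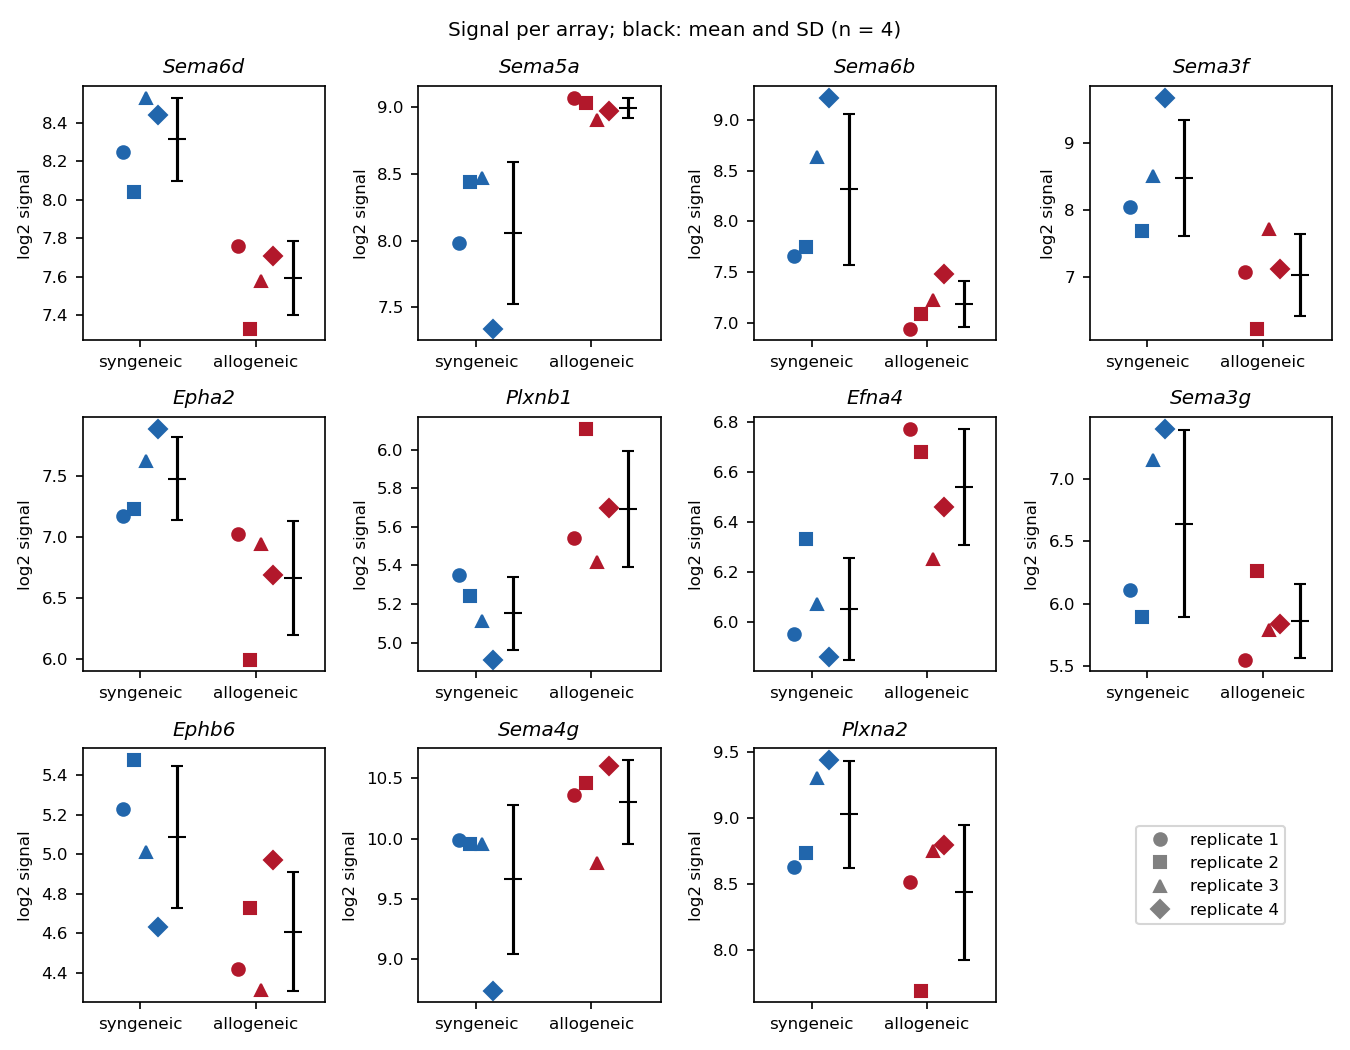
Log2 signal on each array for the 11 guidance genes with an unadjusted p below 0.05, in order of p; symbols mark the replicate number and black bars the mean and SD of 4 arrays. Sema6d, Sema5a, Sema6b, Epha2 and Plxnb1 show groups that do not overlap, and syngeneic array 4 (diamond) is the highest or the lowest syngeneic array in all but Sema6d.

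Among the receptors, Epha2 stood apart from the other EphA genes. It encodes a receptor of ephrin-A1 that is found on epithelium and on activated endothelium. Syngeneic arrays read 7.17, 7.23, 7.62 and 7.89 and allogeneic arrays 7.02, 5.99, 6.94 and 6.69. The groups did not overlap, though the gap between them was narrow and allogeneic array 2 was far below the rest. Its change of -0.82 ± 0.24 (SE, limma adjusted p = 0.176) meant a 1.76-fold higher mean in the syngeneic group, and it was -0.54 without syngeneic arrays 3 and 4. The other 8 EphA genes lay between -0.08 and 0.41. Epha1 (0.41 ± 0.19, limma adjusted p = 0.387) and Epha4 (0.15 ± 0.21) had mean signals above 7. Epha3, Epha5, Epha6, Epha7, Epha8 and Epha10 had means from 3.59 to 5.26 and changes from -0.08 to 0.18.

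Of the 4 EphB genes analysed 3 had negative changes (median -0.24). Ephb4, the venous receptor of ephrin-B2, read 8.78, 8.47, 8.87 and 8.52 on allogeneic and 8.94, 8.54, 9.02 and 9.32 on syngeneic arrays. The groups overlapped, and the change of -0.30 ± 0.17 (SE, limma adjusted p = 0.498, 95% interval -0.68 to 0.08) was -0.08 without syngeneic arrays 3 and 4. Ephb6, a receptor whose kinase domain is inactive, was dim, at 4.31 to 4.97 on allogeneic and 4.63 to 5.48 on syngeneic arrays. Its change was -0.48 ± 0.21 (SE, limma adjusted p = 0.349), and it was larger, at -0.75, without syngeneic arrays 3 and 4 (limma adjusted p = 0.234). Ephb3, a crypt receptor and Wnt target, was at 0.13 ± 0.17 and Ephb1 at -0.19 ± 0.16. The progenitor genes of the crypt, 10 in the list, had 9 positive changes with a median of 0.39, and 0 passed. Their means were 6.85 to 7.07 on allogeneic and 6.26 to 7.08 on syngeneic arrays, and their part in the values of Ephb3 was not tested.

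The 9 plexins also went both ways. Plxnb1, the receptor of Sema4d, read 5.54, 6.11, 5.42 and 5.70 on allogeneic and 5.35, 5.24, 5.11 and 4.91 on syngeneic arrays. The groups did not overlap but lay close to each other, and the change was 0.54 ± 0.17 (SE, limma adjusted p = 0.210). Its second probe set did not bear this out, with means of 4.22 in the allogeneic and 4.65 in the syngeneic group (a change of -0.43), and the mean of both probe sets had a change of 0.06 (limma adjusted p = 0.926). Plxnb2, a receptor with roles in epithelium, had a change of 0.07 ± 0.10 (95% interval -0.15 to 0.29), and Plxnb3 one of 0.07 ± 0.11.

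Plxna2, a receptor of class 6 and, with neuropilin, class 3 semaphorins, had a change of -0.59 ± 0.26 (SE, limma adjusted p = 0.369), which was -0.34 without allogeneic array 2 and -0.25 without syngeneic arrays 3 and 4. Its syngeneic arrays 3 and 4 (9.30 and 9.44) were the highest and allogeneic array 2 (7.69) the lowest, while the other 5 arrays lay between 8.51 and 8.79. Plxnd1, the endothelial receptor of Sema3e, read 8.01, 7.80, 8.71 and 9.43 on syngeneic and 7.97, 7.38, 7.97 and 8.38 on allogeneic arrays. Its change of -0.56 ± 0.33 (SE, limma adjusted p = 0.513) was 0.02 without syngeneic arrays 3 and 4. Plxna4 behaved alike, with -0.74 ± 0.42 and then 0.07. Plxna1 (-0.16), Plxna3 (0.33) and Plxnc1 (0.03) had 95% intervals that included 0.

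The members with the larger changes shared an array pattern. Of the 10 with a change below -0.5, 9 had their highest value on syngeneic array 4, and all 3 with a change above 0.5 had their lowest value there. Picking genes by their change favours such extremes on syngeneic arrays, and the share among all genes picked alike was not computed. Over the 50 members 32% were highest on that array, against 15.6% of all genes, and 28% were lowest, against 17.0%. The pan-endothelial genes were highest on it in 25 of 25 cases, and the colon epithelial genes lowest in 17 of 20. When syngeneic arrays 3 and 4 were left out, Sema3f, Sema6b, Epha2 and Sema6d kept a change below -0.5, 4 of 10, and Sema7a, Plxna4 and Plxnd1 turned positive. Of the 3 on the other side Sema5a kept a change above 0.5. Efna1 (0.09 to 0.54) and Ephb6 (-0.48 to -0.75) moved past 0.5 when these arrays were left out. That fit kept allogeneic arrays 3 and 4. Their pan-endothelial means (8.08 and 8.09) were above those of allogeneic arrays 1 and 2 (7.44 and 7.58), so the groups were not trimmed alike. Without syngeneic array 4 alone the changes were 0.33 (Sema4g), 0.36 (Efnb2), -0.18 (Ephb4), -0.25 (Plxnd1) and -0.31 (Sema7a), and Sema7a was at -1.22 without syngeneic array 2. With the pan-endothelial mean as a covariate the changes were -0.59 (Sema6d), -0.56 (Sema6b), -0.74 (Sema3f), -0.56 (Epha2) and 0.64 (Sema5a), and with the epithelial mean -0.63, -0.49, -0.67, -0.59 and 0.52 in the same order. None passed limma's threshold in these fits.

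**Figure D3:**
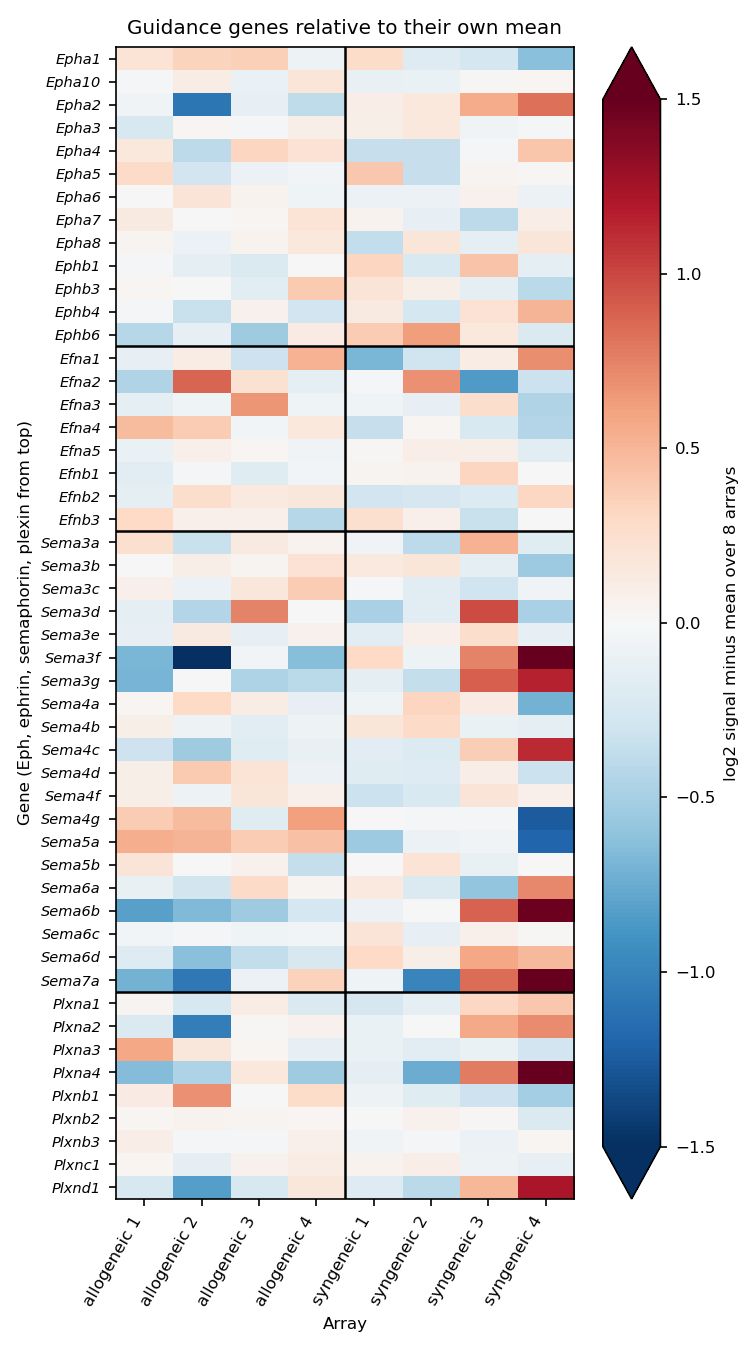
Log2 signal of the 50 guidance genes on each array minus the gene's mean over the 8 arrays, with families separated by black lines and the groups by a vertical line. Sema3f, Sema6b, Sema7a, Plxna4 and Plxnd1 are red on syngeneic arrays 3 and 4, Sema5a and Sema4g are blue on syngeneic array 4, and most Eph and ephrin genes are pale.

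**Figure D4:**
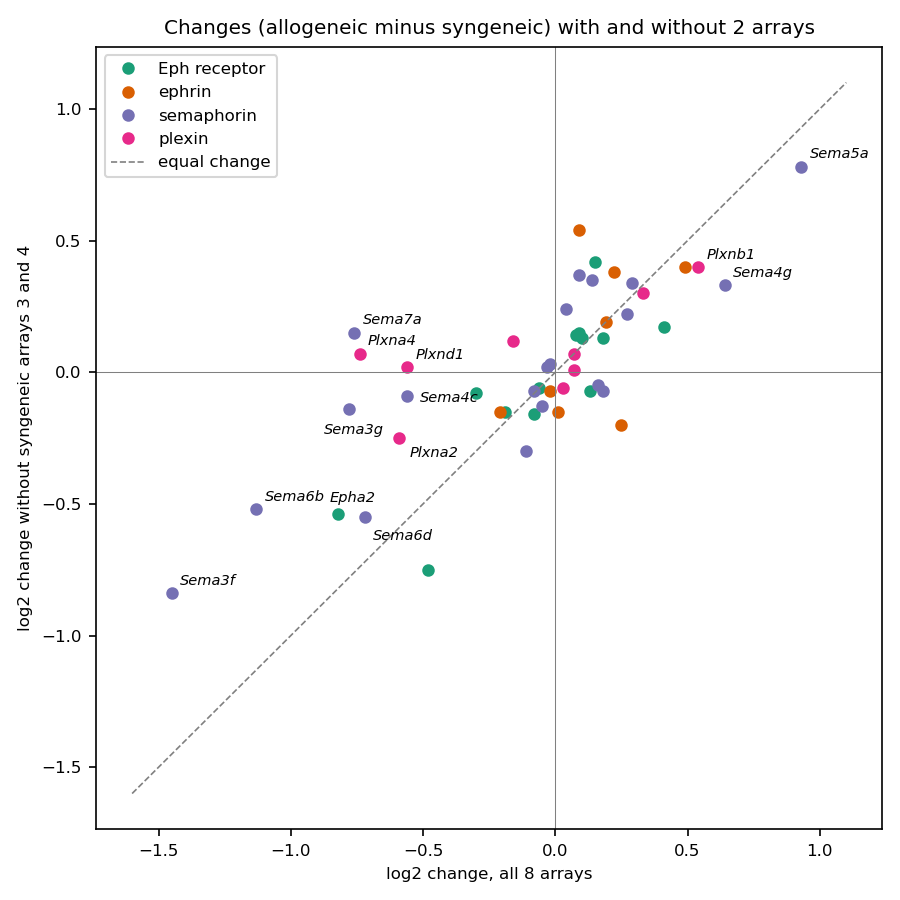
Log2 change of each guidance gene with all 8 arrays (horizontal axis) and without syngeneic arrays 3 and 4 (vertical axis), with names for changes past 0.5 and a dashed line of equal change. Sema7a, Plxna4 and Plxnd1 lie at about 0 or above on the vertical axis, while Sema3f, Sema6b, Epha2, Sema6d and Sema5a stay past 0.5.

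Markers of other cells were measured beside these values. The 5 lymphatic endothelial genes had a median change of 0.03 and means of 6.45 to 7.51 on allogeneic and 6.51 to 7.38 on syngeneic arrays. The 10 pericyte and smooth muscle genes all had negative changes (median -0.29), with means of 7.29 to 7.99 and 7.49 to 8.34. The 8 fibroblast genes had a median change of 0.36, with means of 7.78 to 8.76 and 7.23 to 8.15. Enteric glia and neuron genes had a median of 0.02 over 8 genes and means of 5.24 to 5.49 and 5.32 to 5.62. In the leukocyte list of 12, with means of 4.72 to 5.36 and 4.90 to 5.40, 7 had positive changes, the median was 0.02 and S100a8 passed as lower. Their part in the members' values was not tested.

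Neuropilins and other coreceptors form the receptor complexes of many semaphorins. A broader list of 12 measured genes was followed, which also held Gpc3, Plxdc1, Plxdc2 and Timd2, so its counts are not those of coreceptors alone. In it 0 passed, and at an unadjusted p below 0.05 3 were higher and 2 lower, where 7.81% of all genes were higher and 5.43% lower. Nrp1, the neuropilin that semaphorin 3A shares with VEGF, was at 8.95 ± 0.46 after allogeneic and 9.19 ± 0.64 after syngeneic transplantation (SD, n = 4), a change of -0.24 ± 0.31. Nrp2, the receptor of Sema3f, was at 8.63 ± 0.35 and 8.37 ± 0.32, a change of 0.27 ± 0.20. Erbb2, a kinase that couples to plexin-B receptors, had the smallest p of this list (0.58 ± 0.15, limma adjusted p = 0.132), followed by Gpc3 (0.76) and Timd2 (-0.44). Gpc3 read 4.33, 5.56, 4.56 and 5.70 on allogeneic and 4.12 to 4.52 on syngeneic arrays, so the groups overlapped. Timd2 read 2.83 to 3.08 on allogeneic arrays, below the brightest Y-linked value (3.18).

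Of 24 slit, netrin and repulsive guidance genes 0 passed, with 3 higher and 2 lower at an unadjusted p below 0.05 (background 7.81% and 5.43%). Flrt3, an adhesion protein that binds Unc5 and Robo receptors, read 6.65, 6.56, 6.36 and 6.04 on allogeneic and 5.54, 5.93, 5.35 and 5.38 on syngeneic arrays. The groups did not overlap, and the change was 0.85 ± 0.18 (SE, limma adjusted p = 0.0741). Robo4, a receptor found largely on endothelium, was at -1.08 ± 0.35 (limma adjusted p = 0.209) and Robo2, a receptor of slits, at 1.03 ± 0.34 (limma adjusted p = 0.215). Robo4 also belongs to the 25 pan-endothelial genes. It read 9.44 and 10.36 on syngeneic arrays 3 and 4, against 7.80 to 8.93 on the other arrays.

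Changes past 0.5 were found in 2 of 27 transducers of each kind (7.41%, beside 8.30% of all genes). Of 27 signal transducers of Eph receptors and ephrins 0 passed, with 3 higher and 2 lower at an unadjusted p below 0.05 (background 7.81% and 5.43%) and a median of 0.03. Ngef, an exchange factor that acts downstream of EphA receptors, had the smallest p (0.68 ± 0.19, limma adjusted p = 0.145), with 6.96 to 7.43 on allogeneic and 6.02 to 6.74 on syngeneic arrays. The adaptor genes Grb7 (0.75) and Anks1 (-0.41) came next. Of 27 plexin transducers 0 passed and 1 was higher at an unadjusted p below 0.05 (background 7.81%). That gene was Farp2, a Rac exchange factor of plexin-A receptors (0.85 ± 0.22, limma adjusted p = 0.121), with 6.98 to 7.36 on allogeneic and 5.89 to 6.92 on syngeneic arrays. Fes, a kinase bound by plexin-A1, was at -0.52 ± 0.24, and Rac1 at -0.22 ± 0.11.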

How the data were processed

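Values were used as deposited, on a log2 scale with 1 value for each probe set and array; the submitters' processing notes name RMA and Affymetrix Expression Console 1.4.1. RMA corrects background, normalizes quantiles and summarizes probes. Which level of summary was chosen is not given in the sources used here, and no detection call was at hand. Of 41345 probe sets, 23521 had exactly 1 gene symbol in the platform annotation, 1814 several and 16010 none. The probe set with the highest mean was used for genes with several (3 members), which left 22180 genes. Sequences are from RefSeq (GRCm38.p6), with all 50 members matched by gene ID and a promoter entry for 44.

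A linear model with 1 group coefficient was fitted to all genes with limma 3.58.1 in R 4.3.3 (lmFit, eBayes with intensity trend, prior degrees of freedom 4.65, two-sided). Benjamini-Hochberg adjustment ran over 22180 genes, with a threshold of 0.05. No batch was given, and none was modelled. The number of arrays limits precision. Data were simulated for 22180 genes with 4 arrays per group, and changes were placed only in genes above the median mean. Of these, 17.6% of 1.5-fold, 64.4% of 2-fold and 88.8% of 3-fold changes were called. Dimmer members are not covered by these shares. Noise was drawn separately for each gene, so a pattern shared by the genes of an array was not simulated.

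The members and lists were chosen with earlier results of these data known. Named members are those with an unadjusted p below 0.05, that with the smallest p in each subfamily, and 15 fixed vascular or crypt genes; Sema4c, Sema6a, Plxna4 and other members given by a change alone were named for completeness. Per partner list, the 3 smallest p were named, and Nrp1, Nrp2 and S100a8 besides. Alternatives covered the variance prior, dim genes, scaling, array weights, probe sets, the replicate number, the threshold, marker means as covariates, and arrays left out.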

Additional observations from a re-analysis of the deposited data

Results flagged for a closer look

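Among the 100 groups of 4 arrays (50 members, 2 donor types), 4 held 1 array far from the other arrays of its group, with a gap to the next that exceeded Dixon's 95% critical share of the group's range; about 1 in 20 such groups is expected to by chance. Sema4g was at 8.74 on syngeneic array 4, against 9.96 to 9.99 on the others. Efnb2 was at 8.36 on syngeneic array 4, against 7.76 to 7.84. Efna3 was at 5.64 on allogeneic array 3, against 4.84 to 4.91. Epha6 was at 3.66 on syngeneic array 3, against at most 3.51.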

How the results depend on the processing

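The count of members called higher was 0 under every alternative run. The count called lower was 0 and became 1 (Sema6d) with genes above the median mean only, with a threshold of 0.10, and without syngeneic array 2; leaving out 1 array gave 0 to 1. Lower calls over all genes were 55 of 11090, 102 and 35 in these fits, against 25 of 22180. The median change of the members, 0.03, was 0.10 with arrays centred on their medians, which shifted the median of all genes from -0.01 to 0.06, and -0.03 among the 29 members above the median gene mean. The cause of these moves was not tested, save that the last covers fewer genes. The variance prior, the threshold, the filters on dim genes and the replicate block leave each change as it was, so they cannot turn it. Of 22 named members 15 kept their direction under all alternatives run. The others, all with changes short of the threshold, turned as follows. With the pan-endothelial mean as covariate Ephb3 was at -0.03, Plxnb2 at -0.01, Plxnc1 at -0.02, Plxnd1 at 0.03 and Sema7a at 0.21. With the epithelial mean they were at -0.17, -0.04, -0.09, 0.02 and 0.19. Without syngeneic arrays 3 and 4 Ephb3 was at -0.07, Plxnc1 at -0.06, Plxnd1 at 0.02, Sema3e at 0.03 and Sema7a at 0.15. With arrays centred on their medians Sema3e was at 0.04. Members below a filter on dim genes had no value there. Leaving out 1 array gave -0.12 to 0.34 for Efna1, -0.01 to 0.08 for Plxnc1 and -0.08 to 0.06 for Sema3e. Over all genes, arrays with equal replicate numbers did not deviate together (correlations of 0.055, 0.046, -0.096 and 0.095). Only 1 of 4 allogeneic arrays was closest to its own number. Members differed in this: with the replicate number as a block, the standard error of Sema7a went from 0.51 to 0.20. That of Plxnd1 went from 0.33 to 0.18, while that of Efnb1 rose from 0.12 to 0.14. With this block 0 members passed in either direction, with a median change of 0.03. Calls over all genes went from 79 higher and 25 lower to 40 and 28. Brightness limits what can be seen: 17 members had a mean of at most 5.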
